A study of Mus musculus with 1078 samples.

Results

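The nuclear genes of mitochondrial oxidative phosphorylation (OXPHOS) were followed in single cells from the brains of C57Bl/6 mice that carried GL261, a mouse line used as a model of glioblastoma. Members were the gene names of the table that begin with Nduf, Uqcr, Atp5 or Cox4 to Cox8, together with Sdha, Sdhb, Sdhc and Sdhd, and 92 of 21765 genes matched. Of these, 86 were above 0 in at least 50 of 1078 cells and were kept, namely 76 of 82 subunit genes and 10 of 10 assembly factors or other non-subunit genes. The 6 genes left out were Cox4i2 (17 cells above 0), Cox7a1 (16 cells), Ndufa4l2 (6 cells), Cox7b2 (4 cells), Cox8b (1 cell) and Cox8c (1 cell). The kept genes nearest to the limit were Cox6a2 (99 cells), Cox6b2 and Atp5s. Subunits encoded by mitochondrial DNA were not analysed here.

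Mice 6 to 8 wk old, of both sexes, were given PBS with IgG (control), losartan (60 mg/kg/day, over 2 wk), anti-PD1 (3 injections of 200 μg, 3 d apart) or both drugs (losartan+anti-PD1, called the combination), and values for the 4 treatments are listed in that order. Losartan blocks the angiotensin II type 1 receptor, and anti-PD1 blocks an inhibitory receptor of T cells. Smart-seq2 libraries came from 4 sorts of live cells (positive for CD31, positive for CD3, and negative or positive for CD45), with 1 plate per sort and treatment (16 plates). The labels tie no cell to an animal. A plate therefore counts as 1 sample, no test was run, SDs are over the cells of a plate unless plates are named, and the effect of a treatment and that of its plate cannot be told apart. The tumors come from 1 cell line, and malignant cells on the CD31-positive plates passed a gate for an endothelial surface protein.

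Oxidative phosphorylation makes ATP in the inner mitochondrial membrane. Complex I takes electrons from NADH and complex II (succinate dehydrogenase, also an enzyme of the TCA cycle) from succinate. Complex III passes them to cytochrome c and complex IV to oxygen, and complex V (ATP synthase) uses the proton gradient that complexes I, III and IV build. Gliomas and brain endothelium use both this pathway and glycolysis, and several subunits of complexes IV and V have isoform genes with tissue-restricted expression.

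The kept genes lay on 19 chromosomes, with Atp5sl left out because the gene annotation gave it no position. Detection differed between complexes, taken here over all 82 matching subunit genes, with the 6 left out (all of complex IV) included. A complex V subunit was above 0 in a median of 782 of 1078 cells, a complex IV subunit in 713, complex III in 651.5, complex I in 593 and complex II in 581, and the 2 complex V factors that are no subunits in 193.5. TPM, which corrects for transcript length, was given for the CD31 and CD3 sorts (652 cells), and expected counts, which are not corrected, for the 2 CD45 sorts (426 cells). Each cell was scaled to a total of 100000 (TP100K), cells were compared within a sort only, and levels of different genes were compared in the TPM sorts only. The OXPHOS score of a cell is the mean of ln(TP100K + 1) over the 86 genes, and the OXPHOS share is the sum of the 86 genes as a percent of the cell's total.

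TECs (tumor endothelial cells) of the CD31-positive plates had 10 of 10 endothelial markers above 0 in at least 25% of cells on each of the 4 plates. On the control, losartan and combination plates the cells labelled malignant in that sort had 8, 9 and 9 of 10 glioma markers at this level, and Pecam1, which encodes CD31, was above 0 in 1 of 33, 1 of 25 and 3 of 51 of them. The 8 cells labelled malignant on the CD31-positive anti-PD1 plate had 10 of 10 glioma markers and 14 of 14 cell division genes at this level, but they stood apart with 6 of 6 astrocyte markers in at least 25% of cells (Gfap in 6 of 8, Slc1a2 in 7 of 8) and cytosolic ribosomal genes at 6.89% of the total, against 19.8% to 21.1% on the other plates. The 8 cells labelled malignant on the CD45-negative anti-PD1 plate had Egfr, Fabp7 and Pdgfra at 0, Mki67 in 0 of 8 cells (which allows a share of up to 37.5%) and cytosolic ribosomal genes at 1.83%, against 7.03% to 7.37%. Both groups go against their label in part, and values averaged over the CD31-positive plates are given with and without the anti-PD1 plate. Cells labelled microglia fell into the deposited clusters 6 and 11. Cluster 11 had 3 to 7 of 10 microglia markers at 0 depending on the plate and S100a8, a neutrophil and monocyte gene, in 9 of 12, 5 of 6, 4 of 4 and 5 of 6 cells (a gene chosen after its values were seen), against 1 of 16, 0 of 24, 0 of 4 and 0 of 7 in cluster 6 (counts of 0 that allow up to 12.5%, 75% and 42.9%). It is called cluster 11 here.

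On each of the 4 CD31-positive plates malignant cells had the higher OXPHOS level. Their mean share was 3.81% ± 1.90 (SD, n = 33 cells) on the control plate, 3.23% ± 0.570 (n = 25) on the losartan plate, 3.61% ± 0.859 (n = 8) on the anti-PD1 plate and 3.87% ± 0.636 (n = 51) on the combination plate. The TECs of the same plates had 2.21% ± 0.693 (n = 43), 2.43% ± 0.652 (n = 57), 2.43% ± 0.712 (n = 79) and 2.39% ± 0.588 (n = 16). The scores were 3.11, 3.01, 2.91 and 3.16 in malignant cells and 1.86, 1.88, 1.80 and 1.71 in TECs. The plate means of the 2 cell types did not overlap, while single cells of the 2 types did. On the control plate 2 of 33 malignant cells had shares of 10.5% to 10.9%, with 3399 to 3575 genes detected and cytosolic ribosomal genes at 40.1% to 43.3% of the total (median of the 33 cells, 18.4%). Without them the mean share was 3.36% ± 0.681 (n = 31).

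**Figure D1:**
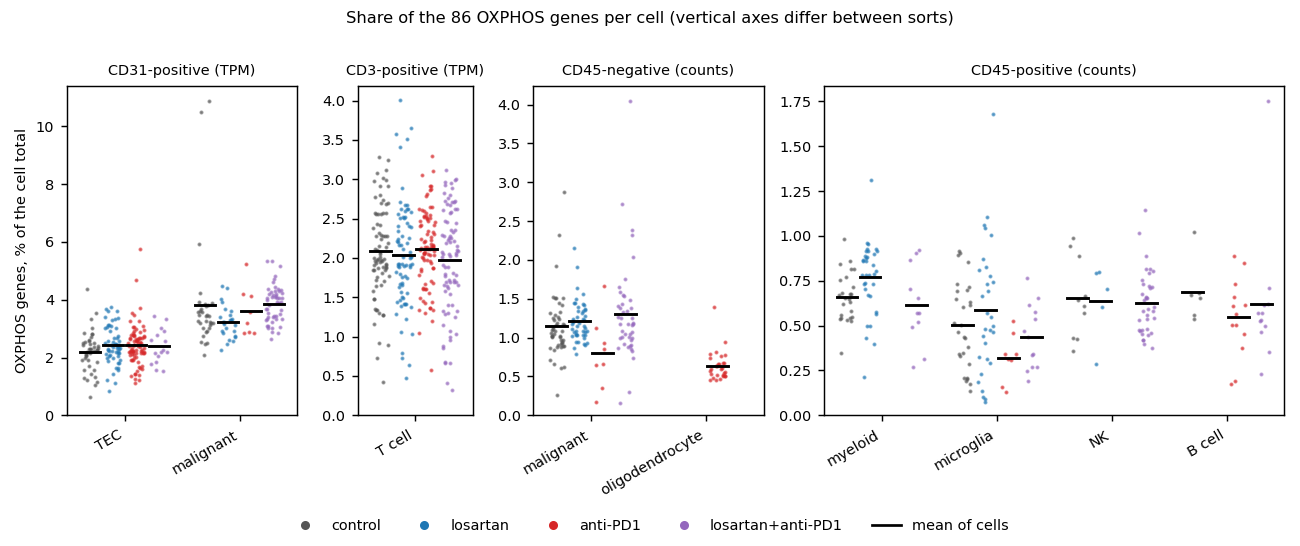
The share of the 86 OXPHOS genes (% of the cell total, vertical axis, with a different range in each panel) by cell type and treatment, with 1 point per cell and the mean of the cells as a bar. The malignant bars of the CD31-positive panel (3.23% to 3.87%) lie above the TEC bars (2.21% to 2.43%), and the 4 T cell bars lie between 1.97% and 2.12%.

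The 2 cell types also differed in how many genes were detected, with medians of 5304.5 to 7188 genes in malignant cells and 2999 to 3620 in TECs. In TECs the score followed genes detected closely (Pearson r = 0.89, 0.91 and 0.81 over 43, 57 and 79 cells of the control, losartan and anti-PD1 plates). The share did so less (r = 0.44, 0.56 and −0.06). These are correlations across cells of 1 plate, which share library and depth, and they are given as a description. Among cells with 2000 to 6000 genes the malignant scores were 3.11, 2.72, 2.75 and 2.98 over 5, 4, 5 and 7 cells, and the TEC scores were 2.10, 2.01, 1.97 and 2.15 over 30, 43, 58 and 10 cells. The difference in score averaged over plates was then 0.83 in place of 1.23 (0.85 in place of 1.27 without the anti-PD1 plate), and malignant cells were still higher on each plate. Of the 5 control malignant cells in this range 2 were the cells with shares above 10%, and without them the control score was 2.84 over 3 cells and the difference over the 4 plates 0.76. Inside the range the malignant cells still had more genes detected, with plate medians of 4157 to 5403 against 3262.5 to 3857 in TECs, so the range does not equalize depth.

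**Figure D2:**
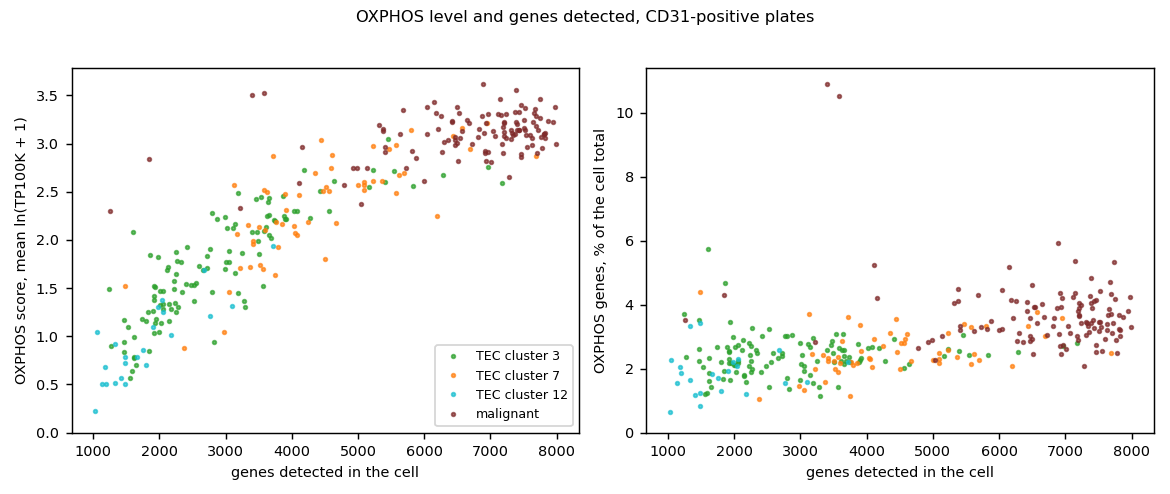
OXPHOS score (left, mean ln(TP100K + 1)) and OXPHOS share (right, % of the cell total) against the number of genes detected, with 1 point per cell of the CD31-positive plates, coloured by malignant label or by deposited TEC cluster. The score climbs with genes detected from TECs of cluster 12 to malignant cells, the share climbs less, and the 2 malignant cells with shares above 10% had 3399 and 3575 genes.

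On the control plate the higher share was seen in each complex. Complex I took 0.683% of the control TEC total and 1.15% of the control malignant total, complex II 0.0423% and 0.0707%, complex III 0.279% and 0.474%, complex IV 0.632% and 1.06%, and complex V 0.527% and 0.977%. The other plates gave the same order for complexes I, III, IV and V, and complex II was higher in TECs on the combination plate (0.106% ± 0.275 against 0.0894% ± 0.0268, where 1 of 16 TECs held 83.9% of the Sdhb sum). For single genes the ratio is log2 of malignant over TEC means after adding 1 TP100K, over genes above 0 in at least 25% of cells of either group, and 1.5-fold was counted as higher or lower. On the control plate 51 of 86 members were higher and 3 lower, against 32.7% of all 10206 genes higher and 24.1% lower, and the median of the members was 0.71 against 0.16 for all genes. With losartan 26 of 86 were higher and 12 lower (26% and 28.1% of 9864 genes), with anti-PD1 39 of 83 and 6 (34.3% and 24% of 9465 genes), and with the combination 48 of 86 and 11 (36.4% and 26.6% of 10200 genes). The medians on the plates of the 3 treatments were 0.34, 0.49 and 0.78 for the members and −0.01, 0.15 and 0.20 for all genes.

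Higher by 1.5-fold on each of the 4 plates were 8 of 83 members and lower on each were 0, against 10.4% and 10.5% of 7896 genes. The count of higher members was thus near the background, and that of lower members was below it. Without the anti-PD1 plate 15 of 86 members were higher on each of 3 plates and 1 was lower, against 17.1% and 13.2% of 9252 genes. The count of higher members was 18 without the losartan plate and 10 without the control or the combination plate, with no share of all genes counted for these. The medians of the plate means (0.56 against 0.09 for all genes over 4 plates, and 0.58 against 0.12 over 3) were further from the background than the counts of higher members. Of the 83 members 43 had a ratio above 0 on each of the 4 plates and 4 had a ratio below 0 on each (Ndufa8, Ndufaf7, Ndufb3 and Atp5sl). The matching share of all genes was not counted, so these numbers have no background and are a description.

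Of complex I, 3 accessory subunits of the membrane arm were among the 8, namely Ndufb9, Ndufb8 and Ndufb6. Ndufb9 (chr15:58933756-58939488, plus strand, GRCm38.p6) had the widest separation. Its mean level in malignant cells was 126.7 ± 62.3, 110.98 ± 38.2, 50.4 ± 30.3 and 140.8 ± 59.1 TP100K, with 100% of cells above 0 on each plate. In TECs it was 11.2 ± 18.5, 27.6 ± 55, 32.6 ± 56.9 and 12.4 ± 16.7 TP100K, with 43.8% to 49.4% of cells above 0. The mean ratio over plates was 2.34 ± 1.34 (SD, 4 plates), the lowest, 0.61, was that of the anti-PD1 plate, and the mean was 2.92 ± 0.82 over the other 3. Of the 50-base windows of its transcript 23.4% also occur in Gm49356, so some of its reads could have been assigned elsewhere. Ndufb8 had malignant means of 69.4, 58.8, 46 and 77.3 TP100K and TEC means of 20.8, 29.1, 20.1 and 34.6, a mean ratio of 1.24 ± 0.31 (1.27 ± 0.37 without the anti-PD1 plate) and no overlap of plate means. Ndufb6 had a mean ratio of 1.42 ± 0.49, and 1.6 ± 0.40 without that plate.

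Other complex I genes did not follow. Ndufv1, which carries the NADH site, was at 6.82, 6.18 and 9.5 TP100K in malignant cells of the control, losartan and combination plates and at 12.2, 14.7 and 4.35 in TECs, so its direction differed between plates. Ndufaf7, an assembly factor, was lower in malignant cells on each plate, at 1.58 to 2.04 TP100K against 2.06 to 7.13 in TECs, with a mean ratio of −1.08 ± 0.57 (−0.97 ± 0.64 without the anti-PD1 plate). Ndufb4 had a ratio of −1.07 on the losartan+anti-PD1 plate, where 1 of 16 TECs held 79.9% of the TEC sum, and of 1.01 without the top cell of each group.

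The genes of complex II differed in direction. Sdhb, its iron-sulfur subunit, had malignant means of 42.9, 39.3, 43.2 and 54.6 TP100K and TEC means of 22.9, 19.6, 28.7 and 84.1, the last of which rested on 1 cell holding 83.9% of the sum. Sdha, its catalytic flavoprotein, had malignant means of 3.31, 5.15, 32.4 and 3.8 TP100K and TEC means of 4.50, 17.1, 21.3 and 9.51. It was below the TEC mean on 3 plates and above it on the anti-PD1 plate, whose malignant label is doubtful, and its ratio was −0.61 ± 0.94 over 4 plates and −1.01 ± 0.61 over the 3 others.

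In complex III, Uqcrq and Uqcr10 were higher in malignant cells on each plate and Uqcrb was not. Uqcrq, a small subunit near the quinone site, had malignant means of 141.95, 125.2, 53.5 and 127.3 TP100K and TEC means of 34.4, 31.2, 32.6 and 37.7 (mean ratio 1.6 ± 0.62, and 1.91 ± 0.15 without the anti-PD1 plate). Uqcr10 had a mean ratio of 1.43 ± 0.58, and 1.6 ± 0.58 without it. Uqcrb was the complex III gene with the highest level in TECs, at 90.5, 94.6, 74 and 94.5 TP100K, and malignant cells had 51.3, 36.6, 74.2 and 44.5. Its ratio was −1.07 ± 0.27 over the 3 plates without anti-PD1 and 0.00 on the anti-PD1 plate. Of its 50-base windows 43.2% occur in other genes, so the level of Uqcrb is uncertain.

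In complex IV, Cox8a, the widely expressed form of a small subunit, had malignant means of 179.1, 132.9, 101.98 and 177.7 TP100K and TEC means of 84.6, 76.3, 66.2 and 79.1 (mean ratio 0.91 ± 0.25, and 1.01 ± 0.19 without the anti-PD1 plate). The largest complex IV gene in TECs on each plate was Cox4i1, at 95.6, 131.5, 146.5 and 119.3 TP100K, and in malignant cells it was at 156.1, 129.6, 181.4 and 147.3. Cox4i1 thus differed less between the 2 cell types than Cox8a. Cox6a1 was at 86.3, 65.1, 68.8 and 78 TP100K in TECs and 81.8, 60.5, 120.8 and 92.6 in malignant cells, so the groups overlapped.

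In complex V, Atp5b, the catalytic beta subunit, had malignant means of 152.7 ± 59, 134.8 ± 52.4, 117.2 ± 29.1 and 175.9 ± 71.7 TP100K and TEC means of 35.9 ± 47.4, 67.2 ± 74.8, 59 ± 54 and 38.4 ± 49 (mean ratio 1.55 ± 0.65, and 1.74 ± 0.65 without the anti-PD1 plate). Each malignant mean was above each TEC mean. The 3 genes for the membrane ring subunit c, Atp5g1, Atp5g2 and Atp5g3, encode the same mature protein. Atp5g2 held 47.5%, 57.3%, 52.1% and 53.5% of their summed level in malignant cells, 47.9%, 48%, 51.5% and 40.3% in TECs and 66.3%, 48.8%, 64.8% and 49.1% in T cells. It was the largest of the 3 in each group except the losartan+anti-PD1 TECs, where Atp5g3 held 46.3%.

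**Figure D3:**
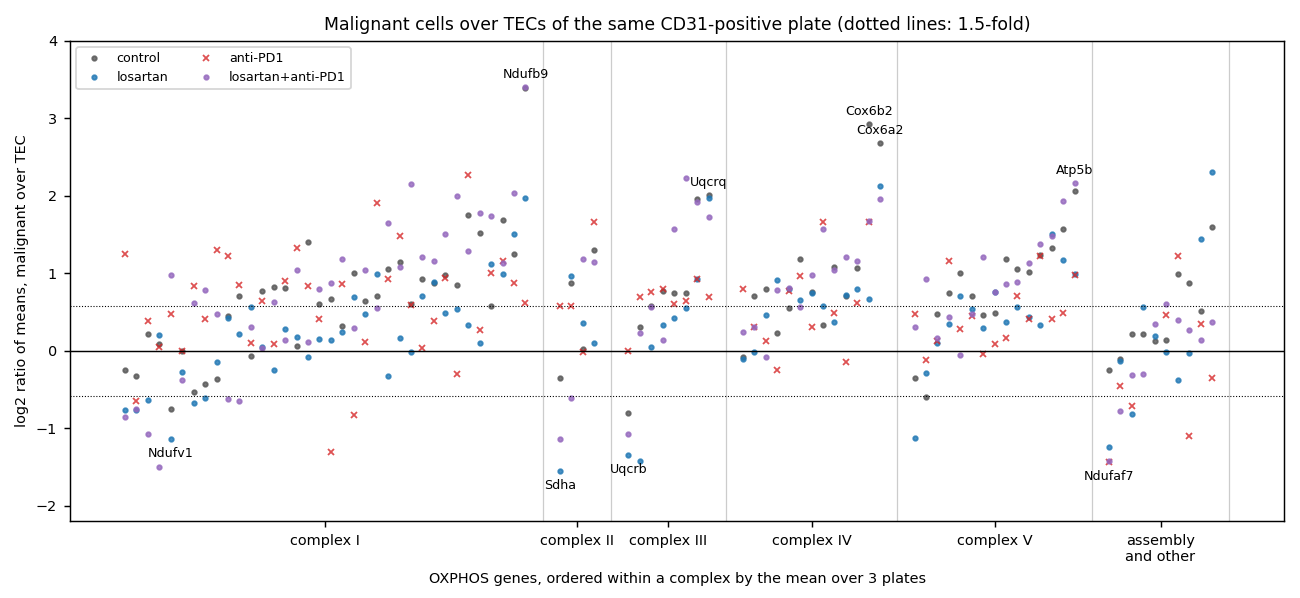
The log2 ratio of malignant over TEC means (vertical axis) for each OXPHOS gene tested, grouped by complex and ordered by the mean of the 3 plates without anti-PD1, with 1 symbol per CD31-positive plate (dots for control, losartan and losartan+anti-PD1, crosses for anti-PD1) and dotted lines at 1.5-fold. Most symbols lie above 0 (medians 0.34 to 0.78), with Ndufb9, Uqcrq and Atp5b at the upper end and Sdha, Uqcrb and Ndufaf7 below 0 on several plates. The ratios of Cox6a2 and Cox6b2 on plates where TECs are listed at 0 depend on the added 1 TP100K.

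Cox6a2 and Cox6b2, the muscle-type and testis-type forms of a pair of complex IV subunits, were above 0 in 49 and 46 malignant cells of the CD31-positive sort and in 42 and 41 of the CD45-negative sort. Both genes passed the minimum of 50 cells through these malignant cells, so their counts are a description. Cox6a2 (chr7:128205435-128206387, minus strand, GRCm38.p6) was above 0 in 16 of 33, 14 of 25, 0 of 8 and 19 of 51 malignant cells of the CD31-positive plates. It was above 0 in 0 of 43, 1 of 57, 1 of 79 and 1 of 16 TECs. The malignant cells of the CD45-negative plates, which are other libraries in another unit, gave 22 of 49, 10 of 47, 0 of 8 and 10 of 44. A count of 0 among 8 cells allows a share of up to 37.5%, 0 among 43 up to 6.98% and 0 among 16 up to 18.8%. These limits are 3 cells over the number of cells, and the exact intervals drawn in the plot of the 2 genes have other upper ends. Cox6b2 (chr7:4751792-4753094, minus strand) was above 0 in 16 of 33, 10 of 25, 4 of 8 and 16 of 51 malignant cells and in 0 of 43, 2 of 57, 2 of 79 and 0 of 16 TECs. In the CD45-negative sort the counts were 18 of 49, 13 of 47, 2 of 8 and 8 of 44.

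Averaged over all cells of a group, those at 0 included, both genes were at low levels beside the widely expressed forms. Cox6a1 held 93.8%, 94.4%, 100% and 96.5% of the summed level of the Cox6a genes in malignant cells, and Cox6a2 the rest. The mean level of Cox6a2 was 5.39 ± 11.9, 3.60 ± 4.83, 0 and 3.40 ± 6.03 TP100K, and that of Cox6b2 was 6.58 ± 18, 1.25 ± 2.18, 2.48 ± 4.38 and 2.19 ± 5.39. On the control plate 1 cell held 45.5% of the Cox6b2 sum. The same cell often lacked one of the genes: both were above 0 in 7 of 33, 7 of 25 and 3 of 51 malignant cells of the control, losartan and combination plates, against 7.76, 5.60 and 5.96 cells if the 2 shares were multiplied. TECs had fewer genes detected than malignant cells (above), and how far this lowers the counts for genes at such low levels was not tested.

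**Figure D4:**
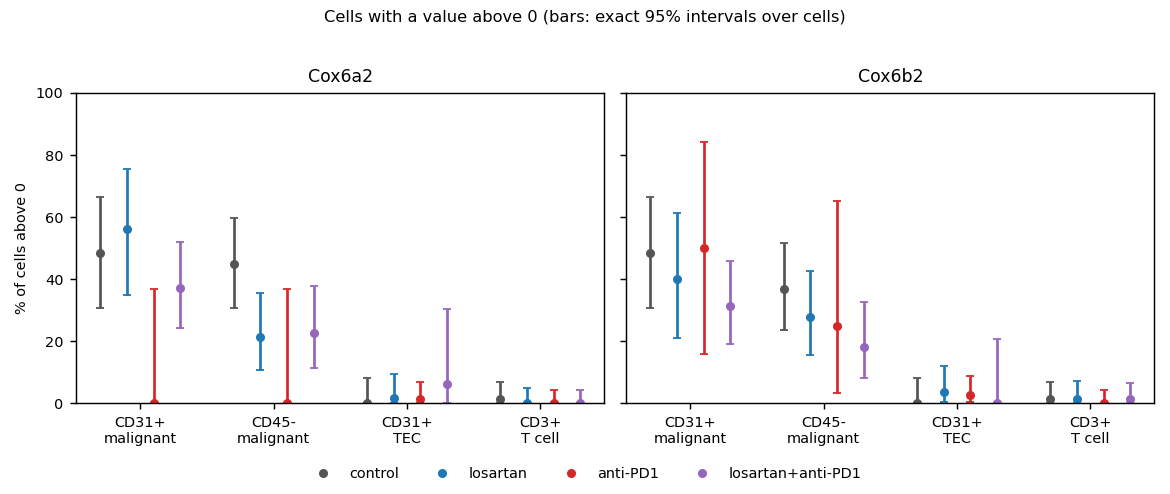
The share of cells above 0 (%, vertical axis) for Cox6a2 (left) and Cox6b2 (right) by sort, cell type and treatment, with exact (Clopper-Pearson) 95% intervals that cover counting error over cells only. Outside the anti-PD1 plates malignant shares were 21.3% to 56% for Cox6a2 and 18.2% to 48.5% for Cox6b2, and TEC shares were 0% to 6.25% and 0% to 3.51%.

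Other genes of energy metabolism were taken from fixed lists and read against the shares of all genes above (32.7%, 26% and 36.4% higher and 24.1%, 28.1% and 26.6% lower on the control, losartan and combination plates). Of 17 glycolysis genes 14, 12 and 12 were higher by 1.5-fold on the control, losartan and combination plates and 2 were lower on each, with median ratios of 1.14, 0.97 and 1.27. Aldoc, an aldolase, had the highest ratio on the control and losartan plates (3.07 and 3.16), and Slc2a1, the glucose transporter of the blood-brain barrier, the lowest on the control and combination plates (−2.13 and −2.92). Of 14 TCA cycle genes 6, 6 and 7 were higher and 2, 0 and 2 lower, with medians of 0.55, 0.47 and 0.73, beside 0.16, −0.01 and 0.20 for all genes. The mitochondrial ribosome had medians of 0.73, 0.65 and 0.88 over 76 genes and the cytosolic ribosome 0.74, 0.96 and 0.95 over 77, so the OXPHOS medians of 0.71, 0.34 and 0.78 were of the same size or smaller. On the anti-PD1 plate the medians were 0.97 for glycolysis, 0.88 for the TCA cycle, 0.38 for the mitochondrial and −0.23 for the cytosolic ribosome. Cytochrome c (Cycs), the mobile electron carrier, had ratios of 1.59, 0.78 and 1.94. Of 13 dissociation and stress genes 12, 11 and 13 were lower in malignant cells, with medians of −1.70, −1.94 and −3.33. These genes were higher in TECs, and their part in the OXPHOS difference was not tested.

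Within TECs the OXPHOS level differed between the deposited clusters, which were made from the genes of the same cells, so the values are a description. On the losartan plate, the only one with at least 5 cells of both, TECs of cluster 7 had a score of 2.47 ± 0.522 and a share of 2.74% ± 0.700 (n = 24), and TECs of cluster 3 had 1.53 ± 0.502 and 2.31% ± 0.421 (n = 29). On the control plate TECs of cluster 7 had 2.23 ± 0.543 and 2.41% ± 0.677 (n = 28), and TECs of cluster 12 had 0.96 ± 0.388 and 1.72% ± 0.576 (n = 12). The median number of genes detected was 3977 against 2151 and 4348 against 1774.5 in these comparisons, so genes detected moved with the level. Over the 4 plates TECs of clusters 3, 7 and 12 had scores of 1.75, 2.35 and 0.93, with 57 cells in cluster 7 and 23 in cluster 12.

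Between clusters 7 and 3, 24 of 80 members were higher and 11 lower, against 27.3% and 26.7% of 7709 genes, and the medians were 0.25 and −0.01. Of complex IV, Cox7b was at 24.3 ± 21.3 TP100K in cluster 7 and 4 ± 9.22 in cluster 3 (ratio 2.34), Cox5b had a ratio of 1.69 Cox7c of 1.55, and 4 of 11 complex IV genes were higher and 0 lower, beside the 27.3% and 26.7% of all genes. Going the other way were Ndufaf7 (0.05 against 11.1 TP100K), Ndufs1 (2.92 against 9.13, a core subunit of complex I) and Sdha (10.2 against 24.1, ratio −1.16). Between clusters 7 and 12, 38 of 77 members were higher and 11 lower, against 46.1% and 24.6% of 7330 genes, and the medians were 0.58 and 0.43. Scaled by the 75th percentile of each cell's values above 0 they were 1.98 and 1.15, and between clusters 7 and 3 they were 1.57 and 0.83. Ndufb6 was listed at 0 in 12 of 12 cells of cluster 12 and was at 33.3 ± 35 TP100K in cluster 7. Sdha was likewise listed at 0 in cluster 12 and was at 6.12 ± 8.26 in cluster 7. Dissociation and stress genes took 2.25% of the total in cluster 12 and 0.543% in cluster 7, and their part was not tested.

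The OXPHOS share of TECs differed between treatments by less than the spread between cells. Shares of 2.21%, 2.43%, 2.43% and 2.39% lay within 1 SD of each other, and the scores were 1.86, 1.88, 1.80 and 1.71. Against control, 17 of 77 members were higher and 6 lower with losartan (21% and 16.5% of 6315 genes), 15 of 78 and 4 with anti-PD1 (23.1% and 17.6% of 6288 genes), and 15 of 78 and 16 with losartan+anti-PD1 (22.9% and 25.3% of 7003 genes). The medians of the members were 0.11, 0.14 and 0.02, beside 0.05, 0.07 and −0.05 for all genes. Between losartan+anti-PD1 and anti-PD1, 14 of 79 members were higher and 25 lower (20.5% and 28.5% of 6550 genes), with medians of −0.22 and −0.10. With each cell scaled by the 75th percentile of its values above 0 the members' medians were −0.06, −0.49 and −0.11 over control and 0.33 for the combination over anti-PD1, and those of all genes moved along, to −0.16, −0.30, −0.09 and 0.21. Relative to all genes the members were 0.07 higher with losartan in the first scaling and 0.10 higher in the second, while for the other 3 comparisons that difference changed sign.

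Within 1 cluster, which was compared after seeing the data, 14 of 80 members were higher and 2 lower with losartan over control in cluster 7 (16.8% and 14.3% of 8166 genes, medians 0.16 and 0.02). In cluster 3, 14 of 76 were higher and 9 lower with anti-PD1 over losartan (19.9% and 17.8% of 4871 genes, medians 0.13 and 0.02). The clusters were unevenly spread over plates, since 78 of 79 TECs of the anti-PD1 plate belonged to cluster 3 and 28 of 43 of the control plate to cluster 7. Treatment and cluster therefore moved together in the comparisons of all TECs.

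The single gene with the largest ratio in TECs under losartan and anti-PD1 was Sdha. Its mean was 4.50 ± 7.73 TP100K in control TECs (37.2% of cells above 0), 17.1 ± 29.5 with losartan (56.1%), 21.3 ± 32.9 with anti-PD1 (64.6%) and 9.51 ± 14.1 with losartan+anti-PD1 (56.2%), and the ratios over control were 1.72 and 2.02 for losartan and anti-PD1. Cells of the 4 plates overlapped widely. Sdha also differed between clusters, at 24.1 ± 38.7 in cluster 3 and 10.2 ± 12.6 in cluster 7 of the losartan plate and 6.12 ± 8.26 in cluster 7 of the control plate. Cox7a2l, which binds supercomplexes of complexes III and IV, was also among the highest with anti-PD1, at 24.1 TP100K in control and 61.7 with anti-PD1 (ratio 1.32). Cox7b had the opposite sign, at 26 TP100K in control, 13 with losartan (ratio −0.95) and 12.4 with anti-PD1 (ratio −1.01). Cox7b was also higher in cluster 7 than in cluster 3 (above), and these clusters were unevenly spread over plates. Within cluster 3 it had the highest ratio of the members for anti-PD1 over losartan (1.42). In losartan+anti-PD1 TECs Sdhb had the highest ratio over control (1.83), which became −0.50 without the top cell of each group.

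T cells of the CD3-positive plates had OXPHOS shares of 2.08% ± 0.594 (n = 79), 2.03% ± 0.676 (n = 76), 2.12% ± 0.499 (n = 88) and 1.97% ± 0.672 (n = 84), with scores of 1.43, 1.29, 1.36 and 1.48. The 4 groups overlapped almost wholly. Over control, 4 of 66 members were higher and 4 lower with losartan (11.8% and 9.98% of 3238 genes), 8 of 68 and 11 with anti-PD1 (13.6% and 12.8% of 3247 genes), and 4 of 70 and 4 with losartan+anti-PD1 (12.8% and 7.98% of 3709 genes). Over anti-PD1, 5 of 71 were higher and 7 lower with the combination (16.4% and 11.6% of 3687 genes). The medians were −0.02, 0.05, −0.08 and −0.10 for the members and 0.03, 0.01, 0.05 and 0.05 for all genes. Scaled by the 75th percentile they were −0.18, −0.31, 0.14 and 0.46 for the members and −0.12, −0.18, 0.21 and 0.41 for all genes, and for losartan and for the combination over control the members lay below all genes in both scalings.

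The 5 genes of complexes I to V with the highest T cell levels on each plate were Ndufa6, Sdhb, Uqcrh, Cox4i1 and Atp5h. Cox4i1 was at 142.95 ± 127.6, 111.5 ± 107.4, 158.9 ± 135.3 and 121.3 ± 119.8 TP100K. Of Atp5h 47.9% of the 50-base windows occur in other genes, so its level is uncertain. Cox7a2l was at 110.9 ± 98.3 TP100K with anti-PD1 and at 65.1 ± 67.6, 59.6 ± 70 and 55.4 ± 61.4 on the other plates. Ndufa10, an accessory subunit of complex I, was at 9.03 ± 21.2, 12.4 ± 31.3, 20.5 ± 39.1 and 16.7 ± 34 TP100K over the 4 treatments and had the highest ratio over control with anti-PD1 and with the combination. Uqcrq was lower on the treated plates, at 29 ± 55.9 TP100K in control and 15.2 ± 31, 13.3 ± 25 and 20.1 ± 27.9 with treatment. Ndufc2 was also highest in control, with 20.4 ± 41.9 in control and 7.17 ± 20.7, 10.5 ± 28.6 and 12.3 ± 22.3. For each of these genes the SD over cells exceeded the difference between plates.

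Leaving aside the anti-PD1 plates, fewer members passed 1.5-fold between treatments in malignant cells than in TECs. The same held for all genes. With losartan 21% of them were higher and 16.5% lower in TECs, against 9.71% and 2.71% in CD45-negative and 2.84% and 7.16% in CD31-positive malignant cells. In the CD45-negative sort the shares were 1.14% ± 0.418 (control, n = 49), 1.22% ± 0.262 (losartan, n = 47) and 1.31% ± 0.639 (combination, n = 44). Another column of the cell table names the combination for the losartan plate of this sort, against the sample label, which was kept. With losartan 0 of 86 members were higher and 0 lower by 1.5-fold, against 9.71% and 2.71% of 9857 genes, and their ratios ran from −0.55 (Cox6a2) to 0.52 (Ndufb5). With losartan+anti-PD1 5 were higher and 2 lower, against 7.11% and 7.22% of 9852 genes. The medians were 0.09 and 0.16, beside 0.10 and −0.02 for all genes. Scaled by the 75th percentile they were −0.05 and −0.06. The losartan+anti-PD1 genes with the highest and lowest ratios were Ndufaf5, an assembly factor of complex I, at 2.09 ± 2.62 TP100K against 0.857 ± 1.59 in control, and Cox6a2, at 0.467 ± 1.10 against 1.42 ± 4.17. Of 17 glycolysis genes 4 were higher with losartan and 0 lower, with a median of 0.44, and Slc2a1 was highest at 2.33.

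In the CD31-positive sort 1 of 86 members was higher and 10 lower in malignant cells with losartan (2.84% and 7.16% of 9919 genes, medians −0.19 and −0.07). With losartan+anti-PD1 0 were higher and 1 was lower (2.64% and 4.96% of 9979 genes, medians 0.01 and −0.03). Cox6b2 had the lowest ratio in both, −1.75 and −1.25, which were −1.26 and −0.82 without the top cell of each group. The 2 control cells with shares above 10% belong to these comparisons. Among cells with 2000 to 6000 genes, which include both and only 5 control cells in all, the medians were −0.73 and −0.48.

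The 8 doubtful malignant-labelled cells of the CD45-negative anti-PD1 plate had a share of 0.798% ± 0.465 and a score of 1.37, below the 1.996 of the control plate, with a median of 3799.5 against 7095 genes detected. Against control 8 of 86 members were higher and 38 lower, beside 23.6% and 43.6% of 10536 genes, and the medians were −0.48 and −0.36. In them Sdha was at 33.5 ± 30.3 TP100K against 8.03 ± 8.56 in control malignant cells, and Sdhd, the membrane anchor of complex II, at 0.644 ± 1.74 against 11.8 ± 9.47. Sdha was thus high in the cells labelled malignant on both anti-PD1 plates, 32.4 ± 16 TP100K in the CD31-positive sort against 3.31 ± 5.15 in control. On the same CD45-negative plate 29 oligodendrocytes had a share of 0.640% ± 0.191 and a score of 1.5.

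**Figure D5:**
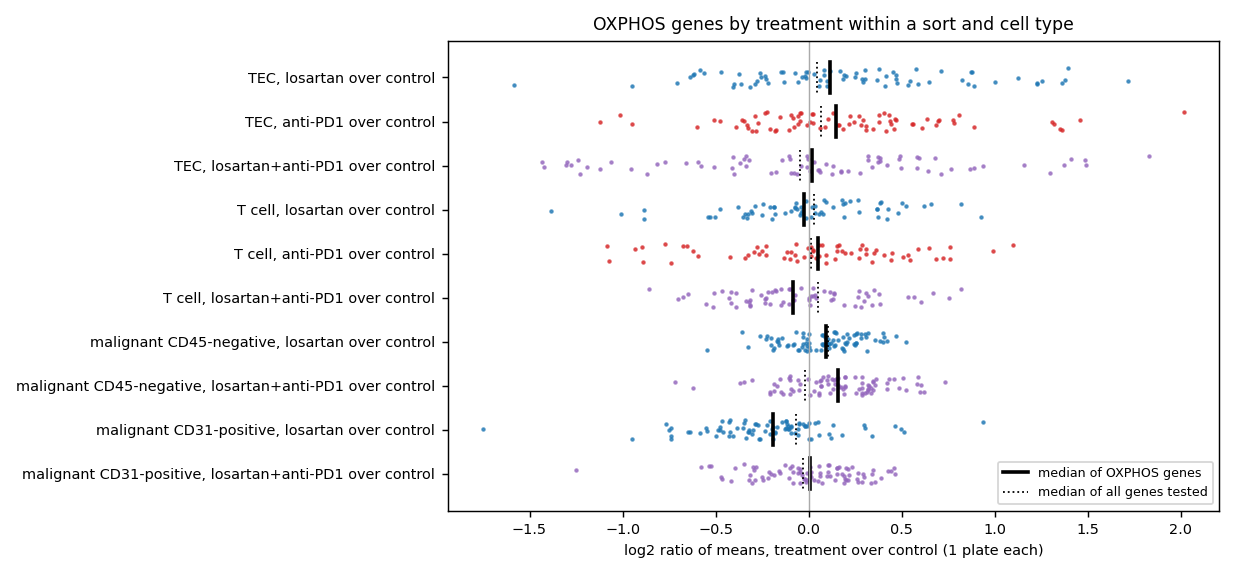
The log2 ratio of treated over control means (horizontal axis) for each OXPHOS gene tested, in 1 line per sort, cell type and treatment, with the median of the members as a thick bar and the median of all genes tested as a dotted bar. The lines are those of TECs, T cells and malignant cells, and cell types of the CD45-positive sort are not drawn. Each ratio compares 1 plate with 1 plate, the medians of the members in these 10 lines run from −0.19 to 0.16, and TECs spread more widely than malignant cells of the CD45-negative sort. The 8-cell malignant groups of the anti-PD1 plates are not drawn.

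In the CD45-positive sort, myeloid cells had OXPHOS shares of 0.661% ± 0.138 (control, n = 25), 0.769% (losartan, n = 34) and 0.617% (losartan+anti-PD1, n = 11), and cells labelled microglia had 0.502% (n = 28), 0.588% (n = 30) and 0.439% (n = 13) on the same plates. NK cells had 0.654% (n = 10) in control and 0.628% (n = 36) in the combination, and B cells had 0.548% to 0.688% on 3 plates. On each of the 3 plates 4 of 74 members were higher in myeloid cells than in microglia-labelled cells and 0 were lower, against 9.16% and 5.89% of 5142 genes. Among the 4 were Ndufv1 of complex I, Uqcrb of complex III and Atp5d of complex V. The count was 10 without the control or the losartan plate and 6 without the combination plate, with no share of all genes counted for these. The gap moved with genes detected: among cells with 2000 to 6000 genes the control shares were 0.661% in 25 myeloid and 0.657% in 15 microglia-labelled cells, and the members' median ratios on the 3 plates were 0.03, 0.14 and 0.00 in place of 0.32, 0.33 and 0.44. This range also left out most cells of cluster 11, so depth and cluster cannot be told apart here. Without any such range, cluster 6 alone had shares of 0.677%, 0.677% and 0.578% on the 3 plates. The first was not below the myeloid share of its plate, and the other 2 were.

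Splitting the microglia label by deposited cluster, a comparison made after seeing the data, gave a wider gap than that between labels. Cluster 6 had scores of 1.35, 1.15, 0.73 and 1.10 and shares of 0.677%, 0.677%, 0.364% and 0.578% (n = 16, 24, 4 and 7 cells). Cluster 11 had scores of 0.40, 0.37, 0.38 and 0.37 and shares of 0.269%, 0.234%, 0.280% and 0.277% (n = 12, 6, 4 and 6), so the 2 clusters did not overlap in their plate means. On the 3 plates with at least 5 cells of both, 26 of 66 members were higher in cluster 6 on each plate and 0 were lower, against 23.1% and 7.6% of 4550 genes, and the median of the plate means was 1.48 against 0.54 for all genes. Atp5g1 was at 6.94 ± 6.32, 5.32 ± 8.50 and 12.3 ± 19.5 TP100K in cluster 6 and above 0 in 0 of 12, 0 of 6 and 0 of 6 cells of cluster 11, counts that allow shares of up to 25%, 50% and 50%. Atp5g2 was at 18.7 ± 11.1, 14.4 ± 12.5 and 13.1 ± 10.7 in cluster 6 and 0.932 ± 2.98, 0 and 3.51 ± 7.20 in cluster 11. Cox4i1 was at 38.8, 42.4 and 56.5 TP100K in cluster 6 and 36.6, 19 and 5.12 in cluster 11, so its gap was narrow on the control plate and wide on the combination plate.

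Cluster 11 cells had medians of 1707.5 to 1897.5 genes detected against 3264 to 4275.5 in cluster 6 on these plates. In microglia-labelled cells the score followed genes detected, with r = 0.95 over 28 control and 0.79 over 30 losartan cells. Cytosolic ribosomal genes were higher in cluster 6 too, with a median ratio of 2.08 over 77 genes on the control plate, and glycolysis genes had a median of 0.02 over 13. Of 13 stress genes 11 were lower there, and the part of depth and stress in the difference was not tested. Within cluster 6, 13 of 79 members were higher and 6 lower with losartan over control, against 33.9% and 18.3% of 7902 genes, and the medians were 0.13 and 0.21.

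Promoters were read because many nuclear OXPHOS genes are known targets of nuclear respiratory factor 1 (NRF1), a transcription factor, and are known to be regulated together. RefSeq promoter windows were found for 70 of 86 members and 15578 genes of the table, and the 250 bases before the annotated start were searched on both strands. The letters GCATGCGC, a core form of the NRF1 site, occurred in 9 of 70 members (12.9%), 3.63% of all genes, 11.9% of 67 mitochondrial ribosomal genes and 0 of 60 cytosolic ribosomal genes. The ETS-type letters CCGGAAGT occurred in 3 of 70 members (4.29%) and 4.50% of all genes, the YY1-type letters AAGATGGC in 1.43% and 1.90%, and TATAAA in 7.14% and 12.6%. The median GC content was 57.2% for members and 56.4% for all genes. None of these letter strings is part of another on either strand, a match is a description and not a site of binding, and no match says only that these letters are absent from the window.

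The 9 members with GCATGCGC were Ndufa6, Ndufa8, Ndufa11 and Ndufaf4 of complex I, Sdhb of complex II, Cox6a1 of complex IV, and Atp5g2, Atp5k and Atp5l of complex V. Positions are relative to the RefSeq start, which can differ from that of GENCODE, and for 4 of the 9 genes the stretch around the motif overlaps the GENCODE gene. The other 5 are shown, since they include Cox6a1, the main Cox6a gene, and Ndufa6, the complex I gene with the highest T cell level. Each line gives 60 bases of GRCm38.p6 upstream of both starts, 5′ to 3′ along the gene, with the motif in capitals.
Ndufa11 (chr17:56717678-56717737, plus strand): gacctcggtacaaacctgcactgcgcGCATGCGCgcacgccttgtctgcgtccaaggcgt
Ndufa6 (chr15:82354341-82354400, minus strand): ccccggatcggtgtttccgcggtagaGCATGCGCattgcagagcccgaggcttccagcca
Ndufaf4 (chr4:24897946-24898005, plus strand): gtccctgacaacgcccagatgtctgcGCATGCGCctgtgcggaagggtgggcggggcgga
Cox6a1 (chr5:115349085-115349144, minus strand): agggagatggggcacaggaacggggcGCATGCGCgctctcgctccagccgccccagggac
Atp5l (chr9:44920933-44920992, minus strand): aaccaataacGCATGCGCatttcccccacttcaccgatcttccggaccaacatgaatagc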

How the data were processed

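Values were used as deposited in 1 table for all cells. For the CD31 and CD3 sorts the authors deposited TPM, and for the 2 CD45 sorts they deposited expected counts without length correction, as the values and totals show (3598 to 1896085 per cell, median 389298). The submitters' processing notes name RSEM 1.2.8, TopHat and Bowtie and the mm10 build. No depth is given for the TPM cells, in which 1023 to 7995 genes were detected over both units. Groups came from the plate labels, and cell types and clusters from the deposited annotation. Each cell was scaled to 100000. Ratios are log2 of group means after adding 1 TP100K, for groups of at least 5 cells and genes above 0 in at least 25% of cells of either group, and calls used 1.5-fold. By a fixed rule the named genes were the 5 members with the highest and the 5 with the lowest ratio of a comparison, the highest gene of each complex, the isoform families and the 4 Sdh genes. Members counted on each plate, and a few whose direction differed (Ndufv1, Uqcrb, Cox8a), were named after their values were seen, and 1 member is not reported here by name. The members and lists were chosen with earlier results of these data known. The ratio code was tested on deposited anti-PD1 TECs and T cells with known 2-fold changes put in, and on a small made-up table. Alternatives were pseudocounts of 0.1 and 10, a 2-fold call, no gene filter, scaling by the 75th percentile of values above 0, cells with 2000 to 6000 genes, counts thinned to 20000, and leaving out plates. Comparisons between deposited clusters within a treatment or label, and the window of 2000 to 6000 genes without the 2 control cells of high share or the anti-PD1 plate, were added after seeing the data. Promoters came from RefSeq (GRCm38.p6) and gene positions from GENCODE. Tables were computed in pandas 2.3.3 with NumPy 2.4.6 under Python 3.11.15, intervals in SciPy 1.17.1 and figures in matplotlib 3.10.9.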

Additional observations from a re-analysis of the deposited data

Results flagged for a closer look

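The members' median log2 ratio for losartan over control was 0.11 in TECs and −0.19 in malignant cells of the CD31-positive sort. The medians of all genes were 0.05 and −0.07. Scaled by the 75th percentile of values above 0 the members' medians were −0.06 and −0.17, so the opposite signs depended on the scaling. In the CD45-positive sort the ratio for losartan+anti-PD1 over control was −0.14 in myeloid cells, −0.24 in microglia-labelled cells and 0.20 in B cells. The medians of all genes were −0.10, −0.24 and 0.18, close to those of the members. B cells numbered 12 with the combination and 6 in control, and their share was 0.620% against 0.688%, the other direction. In both cases cell types of 1 sort had medians of opposite sign in the main scaling, and the medians of all genes had the same signs as the members. The difference was not tested.

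Cox4i2, the lung-type form of a complex IV subunit, missed the minimum of 50 cells and entered no comparison, yet it was above 0 in 62.5% of the 8 malignant-labelled cells of the CD31-positive anti-PD1 plate and in 4% of 25 with losartan, against 3.03% of 33 in control and 0 of 51 with losartan+anti-PD1 (which allows a share of up to 5.88%). Small groups of TECs and microglia-labelled cells on plates of other sorts also had OXPHOS transcripts. The share was 0.479% in 5 TECs of the CD45-negative anti-PD1 plate, beside 0.640% in oligodendrocytes and 0.798% in malignant-labelled cells there. It was 1.58% in 7 microglia-labelled cells of the CD3-positive losartan plate, beside 2.03% in T cells there. These values are not compared with those of other sorts, since the unit or the libraries differ.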

How the results depend on the processing

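Under the alternatives 66 values moved past the tolerance, which was 1 SD over plates for score differences averaged over plates, 0.25 for other scores and medians, and 1.5-fold for counts. Signs turned for medians below the tolerance. Only those that also moved past the tolerance are listed here, so smaller turns are left out, such as TECs with losartan scaled by the 75th percentile (0.11 to −0.06). Scaling by the 75th percentile changed most. The score differences became 1.82 from 1.23 (malignant minus TEC), 0.516 from 0.418 (myeloid minus microglia), 1.03 from 0.826 (cluster 6 minus 11), 1.34 from 0.943 (TEC cluster 7 minus 3), 1.54 from 1.27 (7 minus 12) and −0.636 from −0.200 (CD31-positive malignant, anti-PD1 minus control). The members' medians became 1.57 from 0.25 (7 over 3), 1.98 from 0.58 (7 over 12), −0.49 from 0.14 (TEC, anti-PD1 over control), 0.33 from −0.22 (TEC, combination over anti-PD1), −0.31 from 0.05 and 0.46 from −0.10 (the same in T cells) and −0.69 from −0.00 (CD31-positive malignant, anti-PD1). This scaling also moved the medians of all genes, to 0.83 (7 over 3), 1.15 (7 over 12), −0.30 and 0.21 (TEC, as above), −0.18 and 0.41 (T cells) and −0.37 (CD31-positive malignant, anti-PD1), and to 0.85, 0.92, 0.72 and 0.86 for malignant over TEC, where the members exceeded it by 0.94, 0.73, 0.88 and 0.99.

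With 2000 to 6000 genes detected, the score differences were 0.831 (malignant minus TEC), 0.154 (myeloid minus microglia), 0.684 (7 minus 3), 0.805 (7 minus 12), 0.178 (TEC, combination minus anti-PD1), 0.408 (T cells, the same), −0.169 (CD45-negative malignant, anti-PD1) and −0.392 (CD31-positive malignant, losartan). The medians were −0.20 (CD45-negative malignant, anti-PD1) and −0.73, −0.35 and −0.48 (CD31-positive malignant, losartan, anti-PD1 and combination). Myeloid minus microglia was 0.347 with counts thinned to 20000. With a pseudocount of 10 the median of CD45-negative malignant cells with anti-PD1 was −0.14. Among members higher on each plate, malignant over TEC gave 4 (pseudocount 10), 68 (75th percentile) and 0 (2-fold), cluster 6 over 11 gave 9 (pseudocount 10) and 50 (75th percentile), and myeloid over microglia gave 0 (pseudocount 10), 7 (75th percentile), 1 (2000 to 6000 genes) and 0 (2-fold). Leaving out plates gave 10 to 18, 34 to 39 and 6 to 10 higher members in these comparisons, and 0 to 2 lower for malignant over TEC and 0 to 1 for cluster 6 over 11. The share of all genes called on each plate was not counted here, apart from malignant over TEC without the anti-PD1 plate (above). Scaled by the 75th percentile, the medians of all genes were themselves past 1.5-fold. They were 0.72 to 0.92 for malignant over TEC and 1.04 to 1.54 for cluster 6 over 11. The counts of 68 and 50 are therefore not read as a result about the members.

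Cell types were compared within each plate, so the plate was already the block there. No paired analysis was possible between treatments because each treatment has 1 plate per sort and the labels tie no plates to each other. The window of genes detected was not run for cluster 6 over 11 and for TEC cluster 12 with the combination over control, which left too few cells. Groups below 5 cells were run in this window, such as the 4 malignant cells of the CD31-positive losartan plate. With no replicate plate, differences between treatments have no error beyond the spread of cells.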
